A study of Mus musculus with 21 samples.

Results

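MIN6m9 cells, a subclone of a mouse insulinoma-derived beta cell line that makes and secretes insulin, were compared after 48 h in palmitate and without treatment. The comparison holds 6 of the 21 arrays of the series, chosen by their sample titles: 3 of wild-type cells given 400 uM palmitate and 3 of wild-type cells left untreated. A further 3 arrays of wild-type cells given 400 uM oleate for 48 h shared the estimate of the spread and served as a second reference. The 2 wild-type mock arrays of another experiment in the series were used only to show levels in the same line. The labels give no harvest time for the untreated cells, and nothing in them says that the 3 arrays of a group came from separate cultures. The p-values therefore cover the variation among these arrays alone, part or all of which may be technical. All groups come from 1 tumour-derived line, whose cells divide in culture, and no animal or islet is part of the comparison.

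Palmitate has no double bond in its acyl chain and oleate has a single one, and beta cells kept in excess saturated fatty acid lose function and die, a process known as lipotoxicity. Palmitate is known to disturb the endoplasmic reticulum (ER) of these cells and to activate the integrated stress response, in which phosphorylation of eIF2alpha slows translation in general while the transcription factors ATF4 and CHOP turn on genes of amino acid supply, redox defence and cell death. Fatty acids also act on gene expression through the PPAR receptors, which turn on fatty acid oxidation, and through SREBP factors in the ER membrane, which turn on the synthesis of cholesterol and unsaturated fatty acids when sterols or unsaturated lipids run low. The comparison asks which genes of the cell the saturated fatty acid changes.

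Each array was read in 1 colour, and every level below is a log2 signal relative to the 75th percentile of its array. On the 9 fatty acid arrays that percentile lay at signals of 336 to 459, the median local background was 18 to 19, and 49.96 to 53.5% of probes were well above background; the number of arrays limits the precision. Ins1, which encodes insulin, had a log2 signal of 9.62 to 9.97 on the 6 arrays. An entry, which is 1 probe per gene symbol or unnamed transcript, was tested where every array of some group had it well above background. This left 21281 of 37208 entries, 13224 of them with a symbol.

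2 features of the arrays stand before the results. Heart muscle transcripts were high on the untreated and oleate arrays and low on the palmitate arrays. Over the 20 tested heart markers that are on no skeletal list, the median log2 signal was -1.40 to -1.19 on the untreated arrays, -1.30 to -1.04 on the oleate arrays and -5.10 to -4.18 on the palmitate arrays, against -5.10 and -4.46 on the wild-type mock arrays. Tnnt2, cardiac troponin T, had log2 signals of 0.17, 0.62 and 0.52 in untreated cells and -7.05, -6.91 and -6.95 with palmitate. Skeletal muscle transcripts were high on 2 palmitate arrays: over the 32 tested skeletal markers on no heart list the median was -1.18 and -1.30 on palmitate replicates 1 and 2, -2.24 on palmitate replicate 3 and -2.32 to -2.06 on the untreated arrays. The log2 of their summed signal was 5.32, 5.37 and 4.07 on the 3 palmitate arrays and 4.17 to 4.23 on the untreated ones. Members of both muscle lists were therefore set aside as muscle markers, and calls that do not hold on palmitate replicate 3 alone are named below. That array was alone on its slide, and the other fatty acid arrays shared another slide. A check on replicate 3 alone therefore cannot separate palmitate from the slide.

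**Figure D1:**
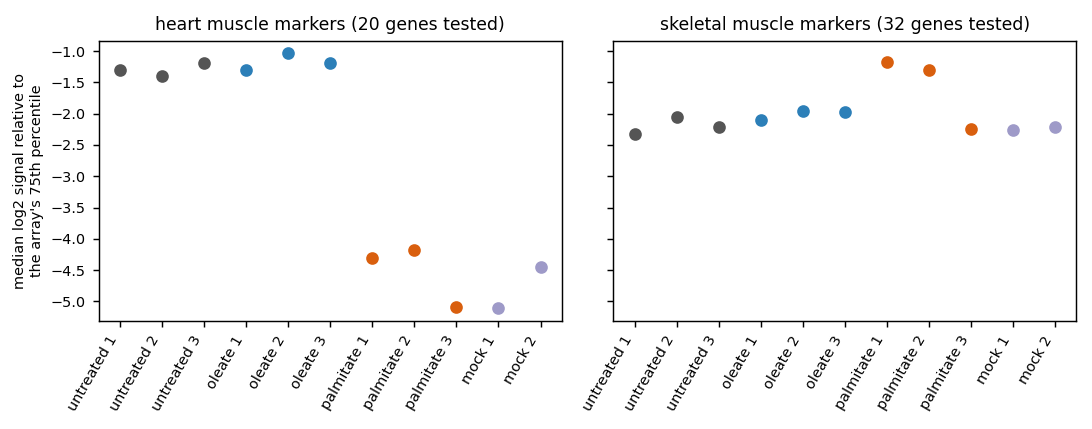
Median log2 signal, relative to the 75th percentile of the array, of heart muscle markers (left, 20 genes on no skeletal list) and skeletal muscle markers (right, 32 genes on no heart list) on each of the 9 fatty acid arrays and the 2 wild-type mock arrays, 1 point per array. Heart markers are low on the 3 palmitate arrays and the mock arrays, and skeletal markers are high on palmitate replicates 1 and 2 only among the arrays shown.

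Untreated replicate 2 held a local patch of weak spots. A spot was counted as low where it lay more than 2 log2 units under the median of the other 8 arrays, among spots well above background on all of those. Untreated replicate 2 had 366 low spots and each of the other 8 arrays 24 to 70. Within a patch of 830 spots, 52.6% of the 445 spots that could be judged were low, and by the same rule no other array held such a patch. Pkm, the last enzyme of glycolysis, had log2 signals of 7.54, -3.57 and 7.32 on the untreated arrays and 7.37, 7.46 and 7.12 with palmitate. Its measured difference of 3.56 ± 2.61 (SE) did not pass the test, and without the patch it was -0.11. Hspa1a, an inducible heat shock protein, went likewise from 1.87 to -0.07. Leaving out the patch, a choice made after seeing it, gave 1593 entries higher and 2747 lower with palmitate.

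In all, 4268 entries, or 20.1% of those tested, passed limma's test at an adjusted p under 0.05. Of these 1578 (7.42%) were higher with palmitate and 2690 (12.6%) lower, so that 37.0% of the calls were higher. Changes of 2-fold or more were mostly rises: 198 entries were higher and 88 lower by that much, and 37 and 20 by 4-fold or more. Among the falls of 2-fold or more, 17 of 88 were muscle markers, against 4 of 198 among the rises. The direction of small changes rests on the scaling. Scaling to spike-in probes moved the median of all entries by 0.19 log2 units, gave 1161 higher and 154 lower entries, and so 88.3% higher calls. The deposited series matrix values moved that median by -0.23 and gave 243 higher and 305 lower entries. Without palmitate replicates 1 and 2, 712 entries were higher and 1011 lower, with the lone palmitate array taken to vary like the other groups.

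Among the genes named in the text, 25 passed with all arrays but not without palmitate replicates 1 and 2 (adjusted p = 0.0509 to 0.279): Adm, Areg, Atp5e, Bbc3, Ciart, Col14a1, Ctsd, Dgat2, Ero1a, Fads3, Fas, Gpt2, Hba-a1, Hmox1, Hspa5, Lgals4, Mafa, Mki67, Nefh, Nefm, Pdx1, Ptgds, Scd2, Slc30a8 and Tnfaip3. Without these arrays Adm was 1.04, Ero1a 0.50 and Hba-a1 -0.73. Leaving out 1 array ended the call of some of them, and of Angptl4 and Olfr128, which are not among the 25. This held for Fas without untreated 1 or 3 or any palmitate array (adjusted p up to 0.0731), for Mafa without untreated 2 or palmitate 2 (up to 0.0636) and for Scd2 without untreated 1 or 3 or palmitate 2 or 3 (up to 0.063). It also held for Tnfaip3 without palmitate 1 or 3 (up to 0.0668), Hba-a1 without untreated 2 or 3 or palmitate 1 or 2 (up to 0.085) and Angptl4 without untreated 1 (0.0654). Hspa5 passed only without palmitate 1 among the 9 arrays left out in turn (otherwise up to 0.132), and Olfr128 only without oleate 1 (otherwise up to 0.11).

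The largest rises fell on genes of very different kinds, among them a lipid oxidase, secreted proteins, prostaglandin enzymes and a galectin. The 20 largest rises were taken among 150 symbols on no muscle list whose 3 palmitate arrays all lay above the untreated arrays and whose palmitate replicate 3 was at least 1 log2 unit above the untreated mean. This rule fixes in advance that the 2 groups lie apart, and it favours genes whose change holds on replicate 3. All 20 were also higher than with oleate, a comparison in which 7.48% of all entries were higher and 6.27% lower. It uses the same palmitate arrays by which the 20 were picked, and so gives no independent support. None of the 20 passed the test of oleate against untreated, in which 0.334% of entries were higher and 0.503% lower. Without palmitate replicates 1 and 2, Areg and Col14a1 no longer passed. For the others, passing there is no independent check, because the rule already required a difference on replicate 3. On the mock arrays all 20 had a mean level nearer to that of untreated cells.

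Acox2, a peroxisomal oxidase that acts on branched acyl chains and bile acid intermediates, had log2 signals of -6.50, -4.80 and -6.90 in untreated cells and -0.16, -0.15 and -0.21 with palmitate. It was well above background on no untreated, oleate or mock array and on all 3 palmitate arrays, and was at least 24.3-fold higher with palmitate (adjusted p = 0.000601). This bound sets the palmitate mean against the lowest signal well above background on each untreated array, or the probe's own where that was higher. Of 21 tested genes of peroxisomal lipid metabolism 2 rose and 4 fell (9.52% and 19.0%, against 7.42% and 12.6% of all entries). Their median was -0.05. Car6, a secreted carbonic anhydrase, stood at -4.73, -3.60 and -3.99 without treatment and at 1.29, 1.24 and 1.05 with palmitate. Its rise of 5.30 ± 0.26 (SE, log2 units) carried it from close to background, with 2 of 3 untreated arrays well above it, to above the 75th percentile of the array. Ostn, which encodes the secreted peptide osteocrin, rose by 4.19 ± 0.14 from -4.00, -3.48 and -3.52 to 0.68, 0.51 and 0.39. In each of these genes the palmitate arrays lay close together, and replicate 3, the array without skeletal muscle transcripts, lay near the other two, as the plot of the largest rises shows.

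**Figure D2:**
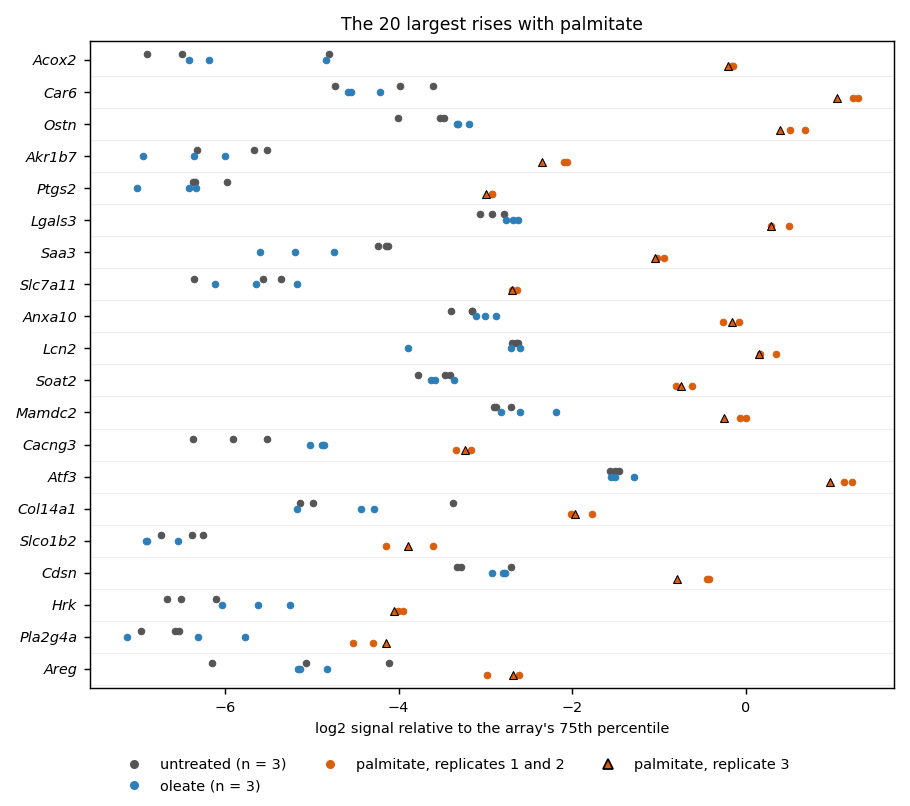
Log2 signal, relative to the 75th percentile of the array, of the 20 genes with the largest rise with palmitate, 1 row per gene. Grey circles are the 3 untreated arrays, blue circles the 3 oleate arrays, orange circles palmitate replicates 1 and 2 and orange triangles palmitate replicate 3. In every row the 3 palmitate arrays lie to the right of all untreated arrays, which the naming rule requires, and of all oleate arrays.

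Genes that turn arachidonic acid into prostaglandins were among these rises. Pla2g4a, the cytosolic phospholipase that frees arachidonic acid from membranes, was not well above background on any untreated array and at least 1.37-fold higher (adjusted p = 0.00225; change with normexp 0.23, adjusted p = 0.249). Ptgs2, the inducible cyclooxygenase, had log2 signals of -6.37, -5.98 and -6.34 without and -2.92, -2.92 and -2.99 with palmitate and was at least 3.56-fold higher (adjusted p = 4.24e-05). Akr1b7, an aldo-keto reductase that can make prostaglandin F, was at least 6.11-fold higher (adjusted p = 0.000164). Ptgs1, the constitutive cyclooxygenase, rose by 1.34 ± 0.23 (0.24 with normexp, adjusted p = 0.218) and Hpgds, which makes prostaglandin D, by 0.69 ± 0.08. Ptgds, the other prostaglandin D synthase, fell by 1.16 ± 0.18, from -1.93, -1.70 and -1.61 to -2.93, -2.88 and -2.90. Ptges, an inducible prostaglandin E synthase, was bright in all arrays and had a measured difference of -0.09 ± 0.06, which did not pass. Of 16 prostaglandin genes tested 6 rose and 1 fell (37.5% and 6.25%, against 7.42% and 12.6% of all entries). Their median was 0.25 against -0.05 over all entries.

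The stress-response regulators rose together in part. Of 27 transcription factors and feedback genes of the integrated stress response and unfolded protein response, 15 rose and 0 fell, with a median change of 0.37 (0.14 in the series matrix values). Without palmitate replicates 1 and 2, 14 rose. Atf3, a stress-induced transcription factor of the ATF/CREB family, had log2 signals of -1.56, -1.46 and -1.51 without treatment and 1.22, 1.13 and 0.97 with palmitate, a 6.14-fold rise (adjusted p = 3.58e-06). Atf4, the central factor of the response, was already bright and rose by 0.62 ± 0.08. Ppp1r15a, the phosphatase subunit that reverses eIF2alpha phosphorylation, rose by 1.24 ± 0.07. Jdp2, a repressor that binds the same kind of sites as ATF3, rose by 1.17 ± 0.11. For all 4 genes the 3 palmitate arrays lay above the 3 untreated ones. The same list had a median of 0.01 with oleate, 0 of its genes passed the test of oleate against untreated, and 18 of 27 were higher with palmitate than with oleate.

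The 250 bases before the start of these genes were searched for the C/EBP-ATF element, the letters to which dimers of ATF4 with C/EBP proteins bind, written here as TGATGNAA and read on both strands. Promoter sequences from RefSeq (build GRCm38.p6) were given for 22 of the 27 tested genes, and 5 of them held the letters, 4 of which were among the 13 risers with a promoter given: Atf3, Nupr1, Chac1 and Jdp2. The other was Vldlr, a lipoprotein receptor outside the naming rule, whose difference of 0.17 did not pass. Among all 32851 promoters given, 3.45% held them, and 3.91% of the 27025 genes they belong to had a promoter that did. The sequences of the 3 risers with a match for which a single promoter was given are shown; the capitals mark the match, which lies on the strand opposite to the gene in all 3. It begins 110 bases before the start in Atf3 and Nupr1 and 193 bases before it in Chac1. A match describes the sequence and shows no binding.
Atf3 (chr1:191183334-191183583, minus strand): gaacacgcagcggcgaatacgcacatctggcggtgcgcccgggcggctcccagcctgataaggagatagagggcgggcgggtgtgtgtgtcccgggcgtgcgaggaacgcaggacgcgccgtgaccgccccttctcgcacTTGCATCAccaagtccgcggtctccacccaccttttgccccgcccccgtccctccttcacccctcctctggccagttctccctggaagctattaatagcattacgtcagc
Nupr1 (chr7:126625471-126625720, minus strand): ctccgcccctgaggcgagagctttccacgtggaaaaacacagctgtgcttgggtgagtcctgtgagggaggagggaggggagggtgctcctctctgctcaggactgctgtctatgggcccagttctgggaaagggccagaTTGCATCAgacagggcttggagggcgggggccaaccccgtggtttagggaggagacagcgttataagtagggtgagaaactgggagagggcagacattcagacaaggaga
Chac1 (chr2:119350992-119351241, plus strand): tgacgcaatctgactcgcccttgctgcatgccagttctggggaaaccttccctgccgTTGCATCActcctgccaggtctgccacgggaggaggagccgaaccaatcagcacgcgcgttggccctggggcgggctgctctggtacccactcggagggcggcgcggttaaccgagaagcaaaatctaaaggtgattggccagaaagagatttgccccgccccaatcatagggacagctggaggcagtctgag

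Nupr1, a stress-induced chromatin protein, had log2 signals of 5.03, 4.83 and 4.92 without and 6.36, 6.37 and 6.29 with palmitate, a 2.65-fold rise. Chac1, which degrades glutathione, rose by 1.11 ± 0.08, from 4.58, 4.38 and 4.52 to 5.61, 5.65 and 5.54. Both sets of 3 arrays are clear of each other by a wide margin relative to their spread. Ero1a, an ER oxidase that CHOP is known to induce, rose by 0.76 ± 0.13, while Ero1b, its close relative in secretory beta cells, fell by 0.58 ± 0.07. Chaperones of the ER lumen moved less: 6 of 18 rose and 0 fell (33.3% and 0%, against 7.42% and 12.6% of all entries). Their median of 0.20 was -0.03 in the series matrix values and 0.19 on palmitate replicate 3. Fewer of them passed without palmitate replicates 1 and 2, as held for many of the lists below. Hspa5, the main ER chaperone BiP, rose by only 0.21 ± 0.06 (adjusted p = 0.0487; -0.01 in the series matrix values), from 7.86, 7.97 and 7.92 to 8.04, 8.19 and 8.16. Fkbp11, a prolyl isomerase of the secretory pathway, rose by 1.17 ± 0.19.

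A number of genes of amino acid supply rose. In the serine and folate pathway 7 of 16 genes rose and 2 fell (43.75% and 12.5%, against 7.42% and 12.6% of all entries), with a median of 0.28. Phgdh, which commits a glycolytic intermediate to serine synthesis, had log2 signals of 4.08, 3.90 and 3.96 without and 5.17, 5.20 and 5.17 with palmitate, a 2.30-fold rise. Psph, the last enzyme of serine synthesis, rose by 1.14 ± 0.06, and the mitochondrial folate enzymes Shmt2, which passes a one-carbon unit from serine to folate, and Aldh1l2, which oxidises formyl-folate, rose by 1.03 ± 0.09 and 1.28 ± 0.07. Mthfd1, a cytosolic folate enzyme, fell by 0.45 ± 0.06. Of 16 genes of asparagine, proline and glutamate metabolism 5 rose and 1 fell, with a median of 0.02 (-0.20 with the matrix values), and 2 rose without palmitate replicates 1 and 2. Among them were Gpt2, the mitochondrial alanine transaminase, at 1.33 ± 0.23 and Aldh18a1, which starts proline synthesis, at 0.73 ± 0.09.

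Among 17 amino acid transporters of the plasma membrane 9 rose and 2 fell (52.9% and 11.8%, against 7.42% and 12.6% of all entries), with a median of 0.35. Slc7a11, which imports cystine in exchange for glutamate, was not well above background on any untreated array, had log2 signals of -2.69, -2.64 and -2.70 with palmitate and was at least 4.29-fold higher (adjusted p = 0.000513). Slc7a3, a carrier of cationic amino acids, stood at 2.85, 3.06 and 3.05 without and 5.16, 5.24 and 5.29 with palmitate, a 4.74-fold rise. Slc1a5, a glutamine carrier, rose by 1.49 ± 0.10 and Slc6a9, a glycine carrier, by 1.59 ± 0.05. Of 20 cytosolic aminoacyl-tRNA synthetases, which load amino acids on tRNA, 13 rose and 1 fell. Their rises were small and alike: the largest change in the list was 0.66, and the list's median relative to the untreated mean was 0.35 on each of the 3 palmitate arrays.

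Cth, which releases cysteine from cystathionine, is a gene on which palmitate and oleate differed plainly. Its log2 signals were -0.15, -0.15 and -0.16 untreated, 2.21, 2.08 and 2.18 with palmitate and -0.86, -0.90 and -0.80 with oleate. It thus rose by 2.31 ± 0.05 with palmitate, fell by 0.70 with oleate (adjusted p = 0.00231) and was higher with palmitate than with oleate by 3.01 (adjusted p = 1.05e-07). No 2 of the 3 groups overlap. Mpst, which also handles sulfur from cysteine, fell with palmitate by 0.81 ± 0.11. Of the 17 cysteine and glutathione genes 4 rose and 2 fell (23.5% and 11.8%, against 7.42% and 12.6% of all entries), and their median was 0.01.

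Secreted factors were among the furthest risers: of 12 stress-responsive hormones and growth factors tested 7 rose and 0 fell, with a median of 0.72 (0.31 with normexp and 0.12 in the series matrix values). Ostn, described above, led them. The list was chosen with earlier results of these data known, and Ostn and Areg are also among the 20 largest rises. Its count and median therefore describe these data and do not test the family. Angptl4, an inhibitor of lipoprotein lipase that PPAR receptors are known to induce, was not well above background on any untreated array and at least 1.90-fold higher (adjusted p = 0.0217; change with normexp 0.16, adjusted p = 0.54), with log2 signals of -5.76, -5.31 and -5.35 untreated, -4.44, -4.28 and -2.85 with palmitate and -4.36, -4.21 and -4.11 with oleate. Palmitate replicate 3 stood alone above the oleate arrays, and the difference between the fatty acids did not pass (adjusted p = 0.552). Areg, a ligand of the epidermal growth factor receptor, had log2 signals of -6.15, -4.11 and -5.06 without and -2.61, -2.98 and -2.68 with palmitate, with 1 of 3 untreated arrays well above background, and rose by 2.35 ± 0.43. Adm2 and Angptl6, a vasoactive peptide and an angiopoietin-like factor, rose by 1.11 ± 0.14 and 1.08 ± 0.08. Gdf15, a hormone of cellular stress that ATF4 and CHOP are known to induce, stood near background at -4.22, -4.46 and -4.68 without and -4.51, -3.97 and -4.24 with palmitate. Its groups overlap and its difference of 0.21 ± 0.17 did not pass. Adm, adrenomedullin, rose by 1.51 ± 0.26 (1.04 without palmitate replicates 1 and 2). On the list of hypoxia-responsive genes 2 of 20 rose and 4 fell, both shares above the 7.42% and 12.6% of all entries. A part of hypoxia in the rise of Adm was not tested.

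Some genes of inflammation rose, at shares above the 7.42% of all entries. The shares higher and lower were 38.5% and 7.69% for acute-phase and complement genes and 35.3% and 5.88% for NF-kB genes. They were 40.9% and 13.6% for interferon-stimulated genes and 44.4% and 11.1% for 9 chemokines and cytokines. Of all entries 12.6% were lower. Of 13 acute-phase and complement genes 5 rose and 1 fell (median 0.43, or 0.12 with normexp). Saa3, an acute-phase apolipoprotein, was well above background on 1 of 3 untreated arrays and went from -4.24, -4.15 and -4.12 to -0.94, -1.02 and -1.05, a rise of 3.17 ± 0.18. Lcn2, which binds iron-carrying siderophores, went from -2.65, -2.62 and -2.70 to 0.35, 0.16 and 0.15. C1qa, a chain of complement C1q, fell by 1.61 ± 0.07. Among 17 NF-kB factors and inhibitors 6 rose and 1 fell: Cd40, a receptor of the tumour necrosis factor family, rose by 1.53 ± 0.05, and Tnfaip3, an inhibitor of NF-kB, fell by 0.48 ± 0.11. Nfkbia, the classical inhibitor of NF-kB and one of its targets, had a difference of -0.06 ± 0.15 that did not pass. Interferon-stimulated genes split, with 9 of 22 higher and 3 lower, led by Rsad2, an antiviral enzyme, at 1.40 ± 0.12, and their median of 0.09 was -0.13 in the series matrix values.

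Among 22 galectins, annexins and S100 proteins, which bind sugars, membranes and calcium, 8 rose and 2 fell (median 0.15, or -0.07 in the series matrix values). Lgals3, galectin-3, went from -3.06, -2.92 and -2.79 to 0.49, 0.28 and 0.29, a 9.70-fold rise, and Anxa10, an annexin, from -3.15, -3.15 and -3.40 to -0.08, -0.26 and -0.16, an 8.39-fold rise. For both genes the spread within each group was small beside the gap between the groups. Anxa3 rose by 1.58 ± 0.14, Lgals4 by 0.94 ± 0.15 and Lgals1 by 0.43 ± 0.06. On the mock arrays Lgals4 stood at 0.43 and 0.19, above all palmitate arrays, at -0.87, -1.22 and -1.26. Vim, vimentin, rose by 1.23 ± 0.11, whereas of 11 markers of mesenchymal, endothelial and immune cells 0 rose and 1, the hemoglobin gene Hba-a1, fell. Hbb-b2, a further hemoglobin gene, had means of -3.52 untreated, -3.79 with oleate, -6.10 with palmitate and -6.40 on the mock arrays. A part of RNA from another tissue in the hemoglobin falls was not tested. Of 9 exocrine pancreas markers 1 rose and 0 fell (11.1% and 0%, against 7.42% and 12.6% of all entries).

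Cholesterol synthesis showed the clearest rise of a whole pathway. Of 20 enzymes 15 rose and 0 fell, with a median of 0.48 (0.66 with spike-in scaling, 0.25 with the matrix values), and the medians on the 3 palmitate arrays were 0.50, 0.48 and 0.54. With oleate the median was -0.12, and 0 of the 20 rose and 3 fell. Set against oleate directly, 14 of the 20 were higher with palmitate and 0 lower. Hmgcs1, an early enzyme of the pathway, had log2 signals of 3.14, 3.29 and 3.27 without and 3.92, 4.02 and 4.12 with palmitate. Fdps, which makes farnesyl pyrophosphate, rose by 0.78 ± 0.07 with palmitate and fell by 0.56 with oleate. Dhcr7, which takes the last step to cholesterol, rose by 0.76 ± 0.07.

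**Figure D3:**
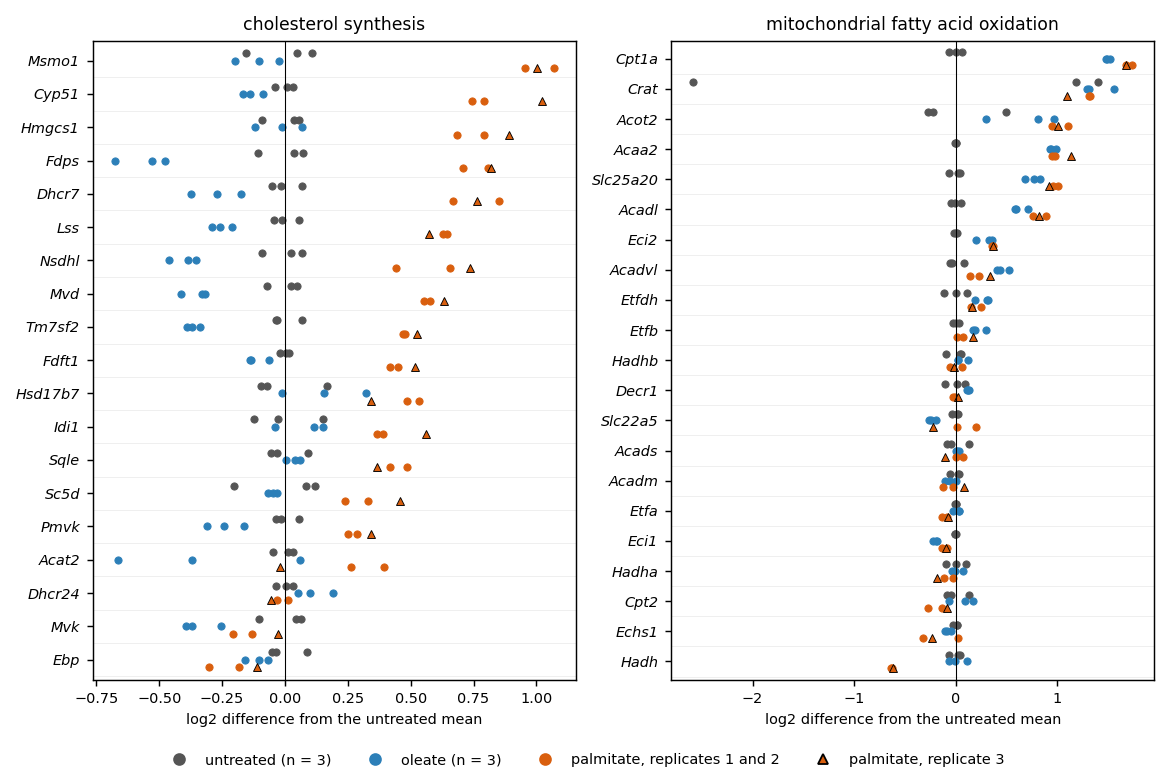
Log2 difference of each array from the untreated mean of the gene for tested genes of cholesterol synthesis (left, not every tested gene is drawn) and the 21 tested genes of mitochondrial fatty acid oxidation (right), 1 row per gene, with grey for untreated, blue for oleate and orange for palmitate arrays (triangle, replicate 3). Palmitate and oleate arrays lie on opposite sides of 0 for several genes on the left, such as Fdps and Dhcr7, and on the same side for Cpt1a, Acaa2, Slc25a20 and Acadl on the right.

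The upstream region of Hmgcs1 is shown because SREBP factors are known to act on this gene. It held TCACNCCAC, the letters of the sterol regulatory element core as searched here on both strands, which 1.05% of all 32851 promoters given, or those of 1.22% of the genes, held; of the 15 tested cholesterol genes with a promoter given it was the only one. The capitals mark the match, 137 bases before the start on the strand of the gene.
Hmgcs1 (chr13:119690101-119690350, plus strand): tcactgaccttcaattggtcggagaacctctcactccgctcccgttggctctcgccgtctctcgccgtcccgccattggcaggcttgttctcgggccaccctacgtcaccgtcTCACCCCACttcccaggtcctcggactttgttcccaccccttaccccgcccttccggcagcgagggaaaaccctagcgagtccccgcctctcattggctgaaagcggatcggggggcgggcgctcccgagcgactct

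Some genes of sterol control and storage rose. Insig1, an SREBP target that retains SREBP in the ER, rose by 0.72 ± 0.08. Soat2, which esterifies cholesterol for storage, was among the 20 largest rises, from -3.41, -3.47 and -3.78 to -0.62, -0.81 and -0.75, and its oleate values of -3.37, -3.62 and -3.58 overlapped those of untreated cells. Over 18 genes of sterol uptake, efflux and SREBP control, 7 rose and 1 fell, and their median of 0.11 was -0.11 in the series matrix values; without palmitate replicates 1 and 2, 3 rose.

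Desaturases also separated the 2 fatty acids. Scd1, which turns saturated into monounsaturated acyl chains, had log2 signals of 2.66, 2.60 and 2.63 untreated, 3.58, 3.62 and 3.84 with palmitate and 1.14, 0.92 and 1.06 with oleate. It rose by 1.05 ± 0.08 with palmitate, fell by 1.59 with oleate and differed between them by 2.64 (adjusted p = 3.09e-06). Scd2, its close relative, was brighter and rose by 0.33 ± 0.08 with palmitate. Fads3, a member of the fatty acid desaturase family, was not well above background on any untreated array and at least 2.29-fold higher (adjusted p = 0.00718; change with normexp 0.30, adjusted p = 0.173). Of 16 desaturation and elongation genes 8 rose and 4 fell. Among 14 acyl-CoA synthetases, which activate fatty acids, 6 rose and 1 fell, with Acsbg1 at 1.90 ± 0.15 and Acsl4, which prefers polyunsaturated chains, at 0.61 ± 0.10, and the 1 that fell was Acss1, which activates acetate in mitochondria. Acss1 followed the heart markers over the groups, with means of -3.91 untreated, -3.75 with oleate, -6.69 with palmitate and -6.63 on the mock arrays; a part of muscle RNA in its fall was not tested.

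Fatty acid oxidation behaved differently, since its leading genes rose with both fatty acids. Of 21 mitochondrial oxidation genes 7 rose and 1 fell with palmitate, 5 rose and 0 fell with oleate, and only 1 was higher and 1 lower with palmitate than with oleate; both treatments share the untreated arrays. Cpt1a, which commits long chains to mitochondrial import, rose by 1.70 ± 0.05 with palmitate and by 1.50 with oleate. Acaa2, the thiolase of the last step, rose by 1.02 ± 0.06 and 0.95, Slc25a20, the carnitine carrier, by 0.96 ± 0.06 and 0.76, and Acadl, a long-chain dehydrogenase, by 0.83 ± 0.06 and 0.63. Hadh, a dehydrogenase that in beta cells also restrains insulin release, did not follow: its log2 signals were 4.04, 4.06 and 3.95 untreated and 3.39, 3.38 and 3.40 with palmitate, a fall of 0.63 ± 0.06, and its oleate change was 0.01. The uncoupling proteins Ucp2 and Ucp3 rose by 1.05 ± 0.09 and 1.16 ± 0.10, and by 0.74 and 0.78 with oleate. Dgat2, which completes triglyceride synthesis, rose by 1.04 ± 0.16, and Plin2, a lipid droplet coat protein, by 0.75 ± 0.06. Of 21 lipid droplet and triglyceride genes 4 rose and 1 fell (19.0% and 4.76%). Sphk1, which makes sphingosine phosphate, rose by 0.86 ± 0.05 with palmitate and 0.99 with oleate. Over 27 genes of ceramide and sphingolipid synthesis 3 rose and 3 fell (11.1% each, against 7.42% and 12.6% of all entries).

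A part of the genes of glucose sensing fell, while genes of insulin processing held near the background. Of 19 genes for glucose entry, the KATP channel and incretin and fatty acid receptors, 8 fell and 0 rose, with a median of -0.31 that stayed negative under the other scalings (-0.12 with spike-in scaling and -0.54 in the series matrix values), and 6 fell without palmitate replicates 1 and 2. Slc2a2, which encodes the glucose transporter GLUT2, had log2 signals of -3.10, -2.92 and -3.06 untreated and -4.54, -4.28 and -5.13 with palmitate, with 2 of 3 palmitate arrays well above background. This was a 3.08-fold fall, with replicate 3 the lowest and the groups apart. Trpm5, a calcium-activated cation channel of the insulin release pathway, fell by 1.30 ± 0.09 from 3.35, 3.32 and 3.12, and Adcy5, an adenylyl cyclase that couples glucose to cAMP, by 1.47 ± 0.15 from -2.34, -2.21 and -2.75. The mock levels of Adcy5 were -3.94 and -4.06, near palmitate as for the heart markers, a part of muscle RNA in its fall was not tested, and the mean over its probes did not pass (-0.91, adjusted p = 0.117). Of 18 genes of insulin and prohormone processing 2 rose and 1 fell (11.1% and 5.56%, against 7.42% and 12.6% of all entries), with a median of 0.00. Ffar1, the fatty acid receptor GPR40, fell by 0.56 ± 0.09.

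Transcription factors of beta cell identity moved less, with 4 of 19 lower and 1 higher (21.1% and 5.26%, against 12.6% and 7.42% of all entries). Their median of -0.12 became 0.07 with spike-in scaling. Pdx1 and Nkx6-1, which maintain the mature beta cell, each fell by 0.38 (SE 0.06 and 0.05), and Mafa, an activator of the insulin gene, by 0.24 ± 0.06. Slc30a8, which loads zinc into insulin granules, fell by 0.41 ± 0.06. Of 22 genes of granule exocytosis 4 fell and 2 rose (18.2% and 9.09%, against 12.6% and 7.42% of all entries), and their median of -0.08 was 0.10 with spike-in scaling. Sytl4, or granuphilin, a tether of docked granules, fell by 0.66 ± 0.09 and Rab27a, its partner GTPase, by 0.44 ± 0.09. Npy, a neuropeptide that immature beta cells express, had log2 signals of 7.93, 7.80 and 7.77 untreated and 6.78, 6.82 and 6.74 with palmitate. It fell by 1.05 ± 0.06 with palmitate and by 0.60 with oleate. Ppy, pancreatic polypeptide, and Tac1, a precursor of substance P, rose by 1.34 ± 0.09 and 1.05 ± 0.11, and Gcg, glucagon, fell by 0.35 ± 0.05. In bulk RNA, fewer cells of a kind and less RNA per cell cannot be told apart.

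Falls outside the muscle lists were described only for genes well above background on both mock arrays, a limit not set for the rises. Of the 43 symbols that met the rule in the other direction and this limit, the 20 largest falls ran from -1.67 to -1.10. For 19 of them the palmitate arrays were also lower than the oleate arrays, the exception being Olfr128 at -0.65 (adjusted p = 0.272), and 6 of the 20 also fell with oleate. The comparison with oleate again uses the palmitate arrays by which the genes were picked. Without palmitate replicates 1 and 2, Ptgds no longer passed. For the others, passing there is no independent check, because the rule already required a difference on replicate 3. The mock level was nearer to that of untreated cells for 13 and nearer to that of palmitate for 7: Cryab, Adprhl1, Adam32, Adcy5, T2, Adamts2 and Gad2. A further 16 symbols fell by the rule but were not well above background on both mock arrays; 6 of them fell by more than any of the 20, down to -4.15. As the mean over all probes of the gene, Adam32 (-0.78, adjusted p = 0.0766) and Adamts2 (-0.42, adjusted p = 0.335) did not pass.

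Cryab, a small heat shock protein abundant in heart and lens, had log2 signals of -0.23, 0.28 and -0.01 untreated, -1.32, -1.17 and -2.47 with palmitate and -2.64 and -2.40 on the mock arrays. Its pattern over the arrays, with palmitate replicate 3 lowest, runs alongside the heart markers described above. Adprhl1, a gene known for its expression in heart, likewise had mock levels of -2.80 and -2.74, nearer to palmitate. The part of muscle RNA in the falls of both genes was not tested. C1qa differed from these: it had log2 signals of 3.26, 3.25 and 3.12 untreated, 1.67, 1.67 and 1.47 with palmitate, 2.53, 2.54 and 2.51 with oleate and 3.48 and 3.22 on the mock arrays. The oleate arrays lay between the other 2 groups, and oleate itself lowered it by 0.69 (adjusted p = 0.00844). Tmsb15l, Tmsb15b1 and Tmsb15b2, of the actin-binding thymosin beta family, fell, with log2 changes of -1.49 ± 0.08, -1.38 ± 0.07 and -1.46 ± 0.08. Their sequences are closely related, so that their probes may read the same RNA and count as 1 result. Nnat, neuronatin, an ER membrane protein that aids insulin production, went from 5.28, 5.32 and 5.35 to 4.27, 4.27 and 4.04, a 2.17-fold fall; as the mean of its probes the change was larger but did not pass. Gad2, which makes GABA and is known as the autoantigen GAD65, went from -1.35, -1.51 and -1.75 to -2.62, -2.56 and -2.73.

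**Figure D4:**
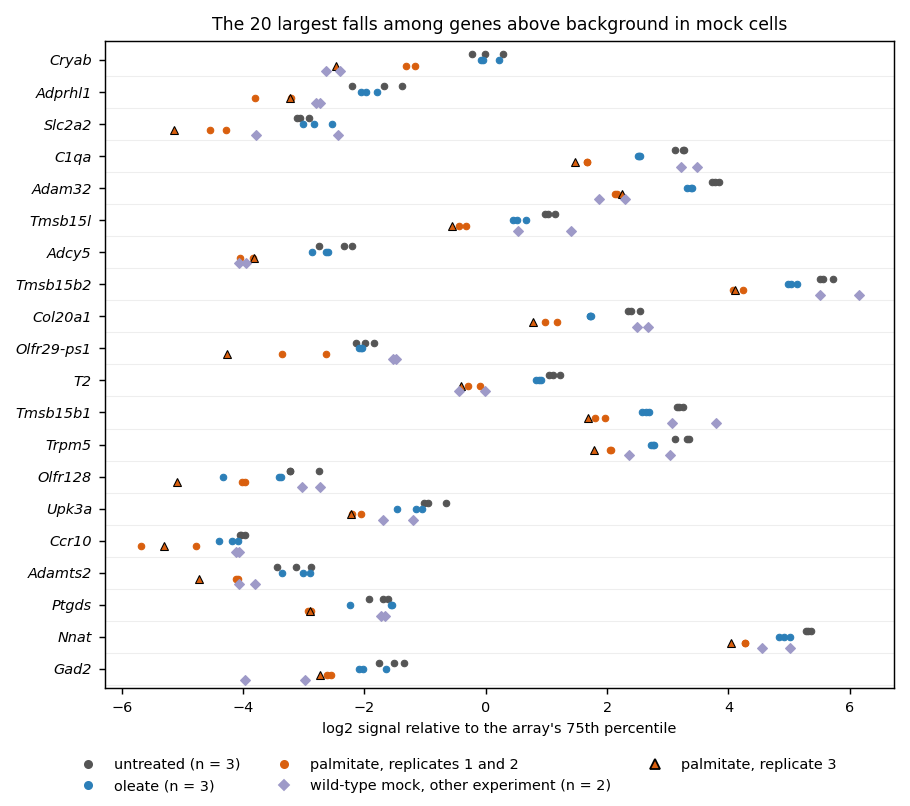
Log2 signal, relative to the 75th percentile of the array, of the 20 genes with the largest fall with palmitate among those on no muscle list and well above background on both mock arrays, 1 row per gene. Grey circles are untreated, blue circles oleate, orange circles palmitate replicates 1 and 2, orange triangles palmitate replicate 3 and purple diamonds the 2 wild-type mock arrays. Palmitate lies to the left of untreated in every row, which the naming rule requires. The mock arrays lie near the untreated arrays for genes such as C1qa and near the palmitate arrays for Cryab, Adcy5 and T2.

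Genes of cell division fell by small and even amounts. Of 37 mitosis genes 31 fell and 0 rose, with a median of -0.33 (-0.15 with spike-in scaling and -0.56 in the series matrix values), and 23 were also lower than with oleate. Without palmitate replicates 1 and 2, 10 of the 37 fell; their median was then -0.32. Ccnb2, a mitotic cyclin, went from 5.35, 5.43 and 5.37 to 4.85, 4.93 and 4.89, and Plk1, a mitotic kinase, from 4.93, 4.99 and 4.92 to 4.41, 4.43 and 4.59. In both genes the arrays of a group sit close together and the groups are apart. Mki67, which encodes the proliferation marker Ki-67, fell by 0.23 ± 0.04. Of 40 DNA replication genes 12 fell and 0 rose (30.0% and 0%, against 12.6% and 7.42% of all entries). Their median of -0.15, however, became 0.04 with spike-in scaling. Of 21 replication-dependent histone genes 9 fell, with medians of -0.47, -0.31 and -0.16 on the 3 palmitate arrays, so that replicate 3 moved least.

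Some targets of p53 and genes of cell death rose. Of 20 D cyclins and inhibitors of the G1 phase, 3 rose and 7 fell (15.0% and 35.0%, against 7.42% and 12.6% of all entries). Their median was -0.21, on the same side as the mitosis genes. Of 26 p53 targets 12 rose and 3 fell, with a median of 0.34 (0.04 in the series matrix values); Cdkn1a, the inhibitor p21, rose by 0.92 ± 0.08 and Trp53inp1, a stress-induced nuclear protein, by 0.98 ± 0.09 (1.79 as the mean of its probes, adjusted p = 0.0866). Mdm2, the ubiquitin ligase that p53 induces against itself, had a difference of 0.17 ± 0.06 that did not pass. Of 27 BCL2 family and death receptor genes 9 rose and 0 fell; their median was 0.03, and -0.19 with the matrix values. Hrk, a BH3-only activator of apoptosis, was not well above background on any untreated array, had log2 signals of -4.00, -3.95 and -4.05 with palmitate and was at least 1.71-fold higher (adjusted p = 0.000293); with normexp its change was 0.24 (adjusted p = 0.0997). Casp4, the caspase that senses intracellular lipopolysaccharide, rose by 2.25 ± 0.27 from -4.44, -3.96 and -3.32 to -1.72, -1.79 and -1.46, with 2 of 3 untreated arrays well above background. Fas, a death receptor, was at least 1.65-fold higher (adjusted p = 0.0268) but had a change of 0.16 with normexp (adjusted p = 0.452), and Bbc3, the p53-induced activator PUMA, rose by 0.30 ± 0.05.

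NRF2 targets, which answer oxidative stress, went both ways, with 9 of 30 higher and 9 lower (30.0% each, against 7.42% and 12.6% of all entries). Slc7a11 and Abcc4, an efflux pump (0.80 ± 0.09), were among those that rose. Nqo1, Aox1 and Gstm2, which detoxify quinones, aldehydes and other electrophiles, fell by 0.79 ± 0.05, 0.76 ± 0.08 and 0.68 ± 0.10. Hmox1, heme oxygenase, rose by 0.39 ± 0.06. Txnip, which binds thioredoxin and follows glucose use, rose by 0.84 ± 0.09, whereas its relative Arrdc4 fell by 0.50 ± 0.05 and by 0.55 with oleate.

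Ribosomal protein and proteasome genes held near the median of all entries. Of 48 cytosolic ribosomal protein genes 0 rose and 1 fell, of 31 proteasome subunits 0 rose and 1 fell, and of 47 mitochondrial ribosomal protein genes 1 rose and 4 fell. Of 51 subunits of oxidative phosphorylation 10 fell and 0 rose (19.6% and 0%, against 12.6% and 7.42% of all entries). Their median of -0.13 became 0.06 with spike-in scaling. Atp5e, a subunit of ATP synthase, had the largest fall, at -0.37 ± 0.05. No subunit was called without palmitate replicates 1 and 2, when each gene had 1 palmitate array. Of 40 lysosomal genes 9 rose and 1 fell (22.5% and 2.5%), none of them by 2-fold, with Ctsd, the protease cathepsin D, at 0.39 ± 0.06. Across the 59 lists other than the muscle ones, list medians ran from -0.33 for mitosis to 0.72 for the secreted hormones; with normexp the lowest was glucose sensing at -0.29.

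**Figure D5:**
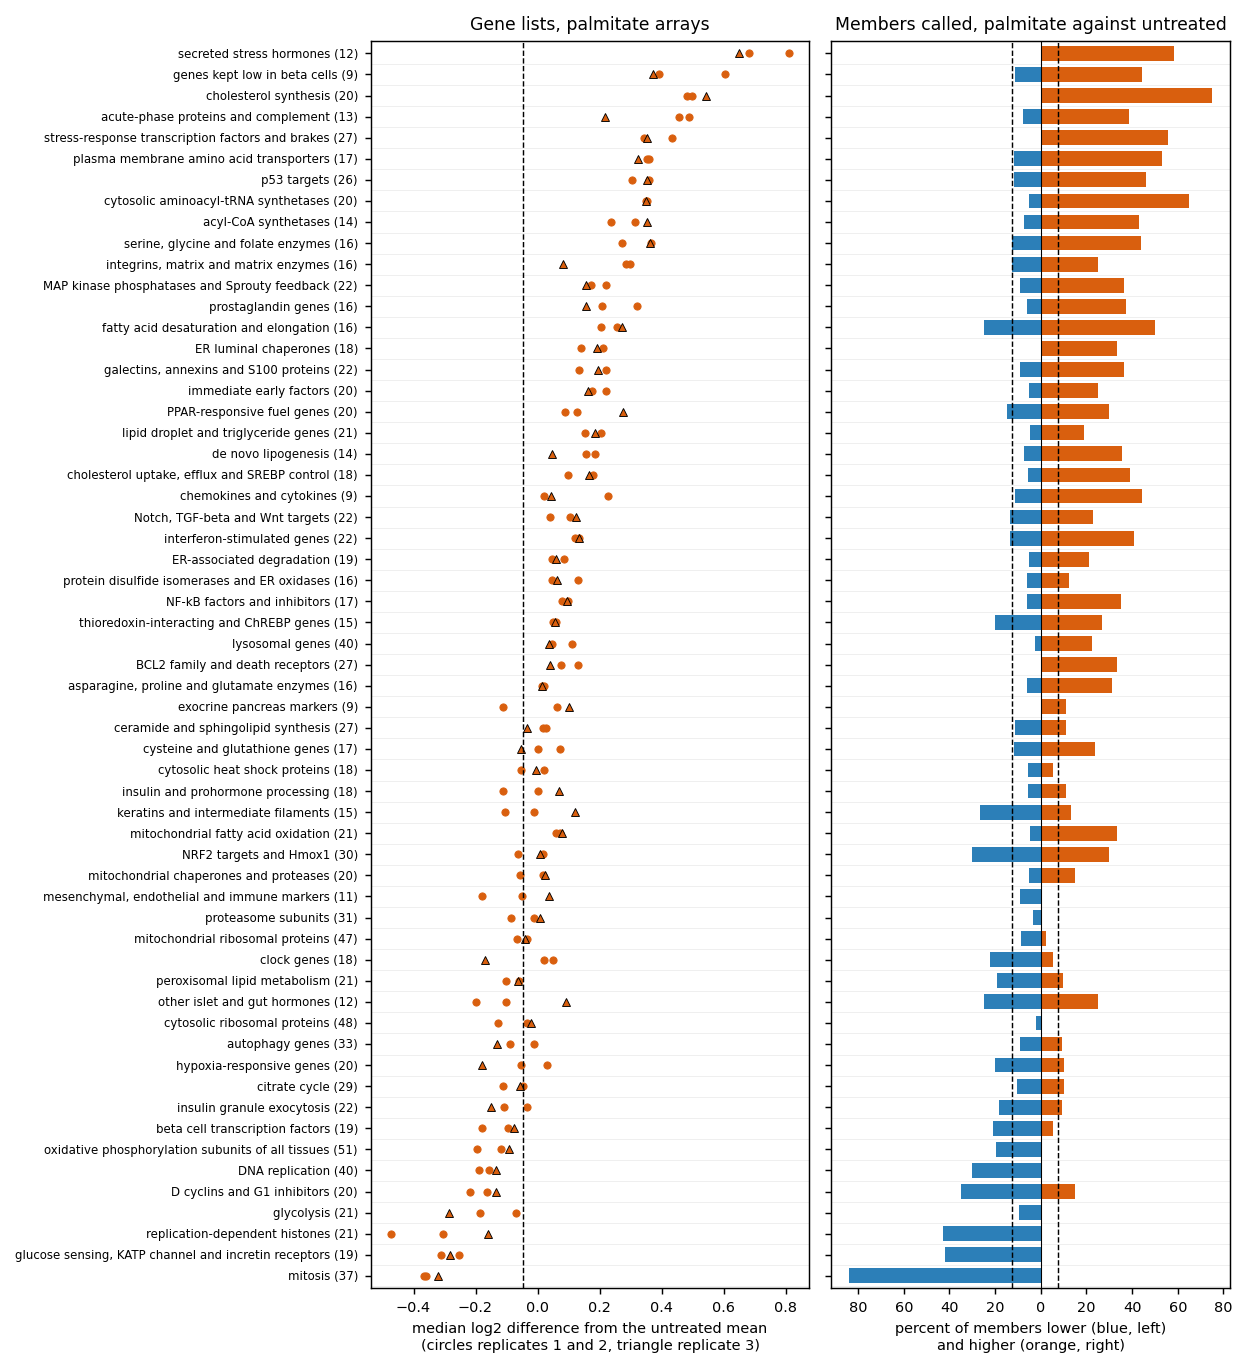
The 59 gene lists other than the muscle markers, with the number of genes tested in brackets. Left, the list's median log2 difference from the untreated mean on each palmitate array (circles, replicates 1 and 2; triangle, replicate 3), with a dashed line at the median of all entries, -0.05. Right, the percentage of members lower (blue) and higher (orange) with palmitate, with dashed lines at the 12.6% and 7.42% of all entries. Mitosis genes stand at the bottom and secreted stress hormones at the top.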

How the data were processed

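RNA was measured on 1-colour Agilent arrays. The deposited scanner files hold processed spot intensity values, which per the file headers are background-corrected Feature Extraction output, and the authors' series matrix holds log2 values. Set against the scanner files, differences between arrays in the matrix are on the same scale and direction, apart from a constant per pair of arrays, but how the genes were centred stays unknown; its columns had medians of 0.26, 0.01 and -0.26 (untreated), 0.35, -0.13 and -0.18 (oleate) and -0.27, -0.23 and -0.27 (palmitate). From the intensity values, log2 signals were taken relative to the 75th percentile of each array after control and outlier spots were left out. For each symbol the probe brightest over the 21 arrays was kept, and unnamed probes were kept once per accession. Entries were tested with limma 3.58.1 in R 4.3.3 (lmFit, eBayes, Benjamini-Hochberg, threshold 0.05) on the 9 fatty acid arrays, with no covariate, and the procedure was tested on simulated data.

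The named genes are the 20 largest rises and falls described, and from each list 2 anchors and up to 5 further members with the largest change. The members and lists were chosen with earlier results of these data known, so the counts and medians of the lists describe these data and test no family. Alternatives were quantile normalization, spike-in scaling over 5 probes, normexp with an offset of 50 on the median signals (the mean signal column was not used here), the series matrix values, other filters, the 6 arrays alone, the mean over probes, the replicate and slide as blocks, and each array left out. Leaving out the patch of weak spots was chosen after seeing the data. RefSeq promoter sequences were matched by symbol. Results for some genes are not reported here.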

Additional observations from a re-analysis of the deposited data

How the results depend on the processing

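The counts of entries moved most with the scaling and the arrays kept. Against 1578 higher and 2690 lower entries, the series matrix values gave 243 and 305, spike-in scaling 1161 and 154, normexp 1188 and 1792, no filter on dim probes 961 and 1305, the 6 arrays alone 1087 and 1512, and leaving out palmitate replicates 1 and 2 712 and 1011. With 1 array left out they ran from 1122 to 1402 higher and from 1518 to 2312 lower; the low counts of 1679 and 1518 lower entries came without untreated replicate 2 and without palmitate replicate 1. The replicate numbers were used as a block although they do not pair the arrays (correlation of deviations -0.027 to 0.035 between same-numbered arrays): the replicate block gave 1364 higher and 2241 lower entries. The slide as a block equals leaving out palmitate replicate 3, the only array on its slide, and gave 1366 and 2160.

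Of the 125 called genes named, 45 kept their side of the threshold under every alternative run; without palmitate replicates 1 and 2, 25 lost it, after scaling to the spike-ins 24 did, and on the matrix values 61. Hspa5 alone changed direction (-0.014 in the series matrix values). Among the uncalled ones, Gdf15 turned to -0.10 with normexp and -0.012 in the matrix values, where Hspa1a was -0.32, Mdm2 -0.060 and Vldlr -0.060. Ins1 turned to 0.082 with quantile normalization and 0.11 with spike-in scaling, and ran from -0.16 to 0.018 with 1 array left out. Spike-in scaling gave 0.13 for Nfkbia and 0.10 for Ptges, which was 0.21 as the mean of its probes. Without untreated replicate 2, or without its patch, Pkm was -0.11 and Hspa1a -0.067, the low ends of ranges that reached 5.45 and 2.91 with another array left out. Spike-in scaling and the matrix values moved the median of all entries by 0.19 and -0.23 log2 units. Hspa5, Gdf15, Mdm2 and Vldlr, which turned on the matrix values, had tested differences smaller in size than that move. Nfkbia and Ptges had differences smaller in size than the spike-in move. The cause of the other shifts was not tested. Values close to background limit the dim genes, for which the bounds stand in place of a fold.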

Other observations

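A few gene groups outside the comparisons above also held changes, given here as values. Of 18 clock genes 4 fell and 1 rose (22.2% and 5.56%, against 12.6% and 7.42% of all entries): Dbp, a clock-driven transcription factor, went from 4.35, 4.53 and 4.28 to 3.47, 3.65 and 3.46, a fall of 0.86 ± 0.08 (SE), and Ciart, a repressor of the clock, rose by 0.46 ± 0.08 (without palmitate replicates 1 and 2 it was 0.38, adjusted p = 0.104). The list's median of -0.04 became 0.15 with spike-in scaling. Among genes of antigen presentation on the interferon list, Tap1, a peptide transporter, rose by 0.60 ± 0.07 (0.26 with normexp, adjusted p = 0.0562) and B2m, the light chain of MHC class I, by 0.67 ± 0.09, and Bst2, an antiviral membrane protein, rose by 0.84 ± 0.07. None of these genes passed the test of oleate against untreated.

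Of 15 keratins and other intermediate filaments 2 rose and 4 fell (13.3% and 26.7%, against 7.42% and 12.6% of all entries). Nefl, Nefm and Nefh, the 3 neurofilament chains, fell by 0.46 ± 0.07, 0.26 ± 0.05 and 0.28 ± 0.06. Of 22 Notch, TGF-beta and Wnt targets 5 rose and 3 fell (22.7% and 13.6%). Among them was Id3, an inhibitor of transcription factor binding, at -0.77 ± 0.10.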
